A study of Mus musculus with 12 samples.

Results

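The genes described here encode 9 enzymes or regulators of glycolysis for which the genome holds more than 1 copy per reaction. They are the hexokinases Hk1 and Hk2, the phosphofructokinases Pfkl, Pfkm and Pfkp, the aldolase Aldoa, the pyruvate kinases Pkm and Pklr, and Pfkfb3, whose product sets the level of the activator of phosphofructokinase. They were picked by symbol, 9 of the 23420 genes in the table, because of how they differed between ischemic and control kidneys. Their levels against control are therefore given as a description with no test. For these 9 genes, only comparisons that did not serve to choose them were tested. The other genes listed below were also chosen with earlier results of these data known. Their p-values against control are therefore no independent support.

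RNA was sequenced from 12 kidneys of male C57BL/6J mice aged 8 to 15 weeks. The 4 control kidneys were taken at a nephrectomy, and whether they came from the mice that were later clamped is not given in the sources used here. The other 8 kidneys were collected 24 h after a clamp on the renal pedicle had been released, with 20 min of ischemia by the labels, which give the same 20 min for the controls. By design 4 of these mice were awake and 4 anaesthetised during the clamp, but the labels contradict each other on which is which. The 4 kidneys called set A here are anaesthetised by title and conscious by the group field, and the 4 kidneys called set B are the reverse, so no direction is given to anaesthesia. The libraries were made from bulk kidney tissue, the middle of the kidney having gone to histology, and fewer cells of a type and less RNA per cell cannot be told apart in them.

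Glycolysis splits glucose into pyruvate in a chain of reactions, and several of these reactions can be run by different isoenzymes, products of separate genes that differ in affinity, in regulation and in the tissues that use them. The proximal tubule, which makes up most of the renal cortex, burns little glucose and makes it instead, and carries the liver-type form Pklr along with the enzymes of gluconeogenesis. The distal parts of the nephron use glucose as a fuel. Hk2, Pkm and Aldoa are forms of tissues that run glycolysis at a high rate, such as muscle, growing cells and many tumours.

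Depth, taken as the sum of all gene counts, ranged from 15367342 (replicate 4 of set B) to 44793350 (replicate 3 of set A). A count of 3, taken as the floor of detection, corresponded to between 0.0661 and 0.191 CPM (counts divided by library size after scaling by the trimmed mean of M values, TMM), and it covers counting error only. The markers of the proximal tubule (6 genes) summed to between 6890 and 7760 CPM in the controls, between 692 and 1390 CPM for set A and between 417 and 1320 CPM for set B, and all 6 fell in both sets in edgeR's quasi-likelihood test at an adjusted p below 0.05. The 5 distal markers summed to between 2930 and 3530 CPM, 1130 and 1740 CPM, and 1030 and 2010 CPM, and 2 of them fell in each set. The 8 leukocyte markers in the table summed to between 44.7 and 66.8 CPM in the controls, 9.46 and 26.4 CPM for set A and 13.2 and 34.2 CPM for set B. Most of this sum was Csf1r, which fell from a mean of 52.1 CPM to 13.6 and 10.6 CPM, and Cd3e fell from 1.83 CPM to 0. The other 3 tested did not pass, with means in the controls, set A and set B of 2.96, 3.84 and 4.39 CPM for Ptprc, 0.837, 0.830 and 3.12 CPM for Cd68 and 0.195, 0.517 and 1.0 CPM for Itgam, and Cd79a and S100a8 were at 0 in every kidney. Skeletal muscle markers reached at most 4.02 CPM in sum, with Ckm, Myh2 and Myh4 at the floor in every kidney, and the 4 adipose markers were at 0. These marker sums moved with the groups in the same kidneys as the values that follow, and their part in those values was not tested.

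All 9 genes passed the filter on low counts, Hk2 through the ischemic kidneys alone. In set A, 5 of the 9 lay above every control kidney (Hk1, Hk2, Pfkp, Aldoa and Pkm) and 3 lay below (Pfkl, Pfkm and Pklr). Of all 11664 genes tested, 28.2% had no overlap between set A and the controls (12.6% higher and 15.7% lower). In set B, 4 lay above every control (Hk2, Pfkp, Aldoa and Pkm) and 1 below (Pfkm), where 26.7% of all genes had no overlap (11.6% higher and 15.1% lower). With all 8 ischemic kidneys set against the controls, the same 4 were above and Pfkm below, which holds too without replicate 4 of set B. No overlap was found for 20.1% of all genes in that comparison (8.43% higher and 11.7% lower). Since the genes were chosen on this contrast, nothing is read from these counts.

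**Figure D1:**
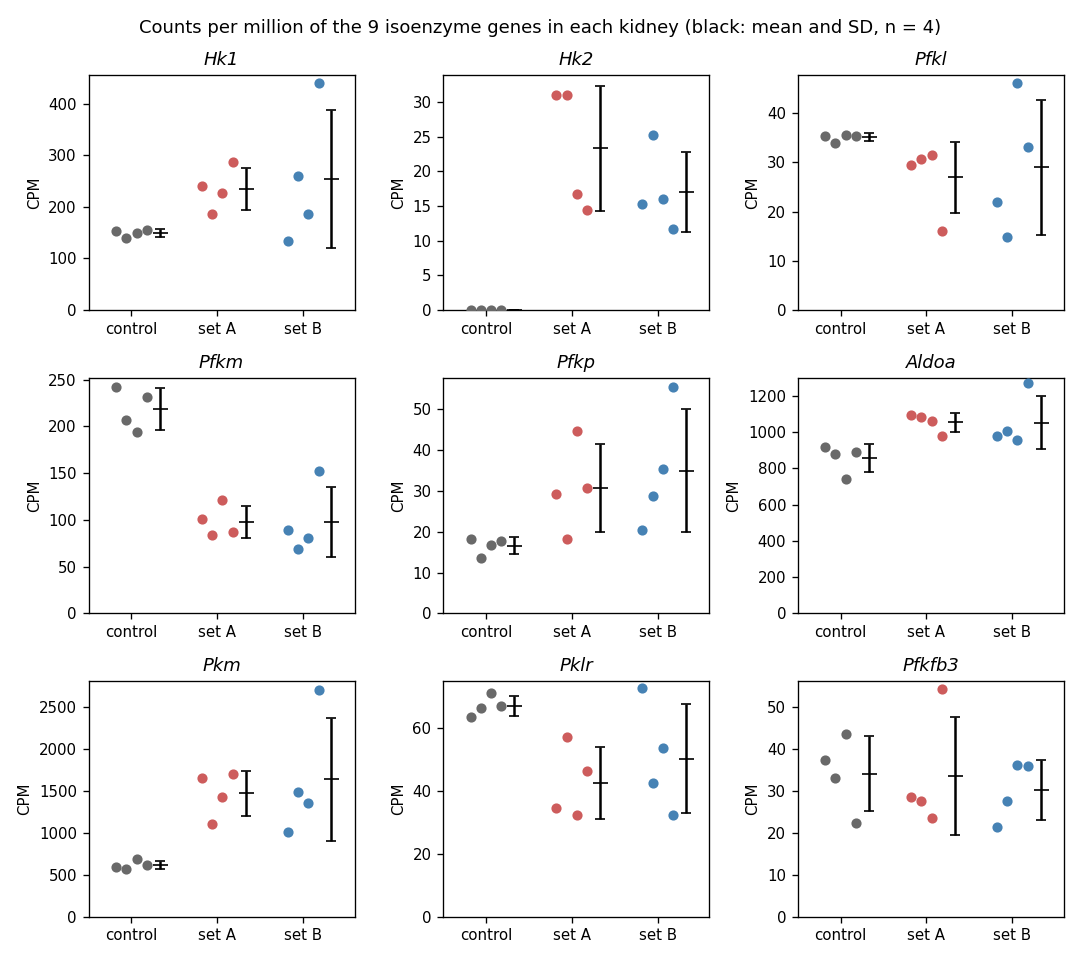
CPM, the count scaled to library size (vertical axes, linear from 0) of the 9 genes in each of the 12 kidneys, with the controls in grey, set A in red and set B in blue, and the mean and SD of each group in black. Hk2, Pfkp, Aldoa and Pkm lie above all controls in the 8 ischemic kidneys and Pfkm lies below, while Pfkfb3 overlaps.

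Hexokinases trap glucose in the cell by phosphorylating it. Hk1 is the form of most resting tissues and Hk2 an inducible form, and both can sit on the outer membrane of mitochondria. Hk2 (chr6:82725025-82774454, minus strand, GRCm38) had 0 counts in 3 of the control kidneys and 1 count in the other. In set A it measured 31.05, 31.03, 16.74 and 14.4 CPM in replicates 1 to 4, and in set B it measured 15.3, 25.24, 15.96 and 11.68 CPM. Every ischemic kidney was therefore above every control, with at least 184 counts in each. With the controls set to the floor of 3 counts per kidney, the mean of 23.3 ± 8.98 CPM (SD, n = 4) in set A was at least 224-fold higher, and the mean of 17.1 ± 5.78 CPM in set B was at least 164-fold higher.

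Hk1 (chr10:62268855-62379908, minus strand) was the main hexokinase of the control kidneys, with 153.3, 139.5, 149.6 and 155.0 CPM. In set A it measured 240.1, 186.2, 226.3 and 286.5 CPM, and in set B 132.9, 259.0, 185.9 and 439.7 CPM. Set A lay wholly above the controls, whereas replicate 1 of set B lay below all of them and replicate 4 far above. The means were 149 ± 6.95 CPM in the controls, 235 ± 41.4 CPM for set A and 254 ± 134 CPM for set B, and the last was 193 ± 63.3 CPM (n = 3) without replicate 4. On the log2 scale Hk1 was 0.65 (SE 0.25) above control for set A and 0.77 for set B, or 0.36 in set B without replicate 4.

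Also examined for this step were the leukocyte form Hk3 and Hkdc1, a hexokinase-like gene next to Hk1 on chromosome 10. Hkdc1 rose from a control mean of 7.83 ± 2.24 CPM to 23.4 ± 4.41 CPM in set A (log2 fold change 1.58, SE 0.31, adjusted p = 6.4e-04 in edgeR's quasi-likelihood test) and to 30.3 ± 9.17 CPM in set B (log2 fold change 1.95, SE 0.31, adjusted p = 8.7e-05). Its 8 ischemic values lay between 17.5 and 40.4 CPM, all above the control maximum of 11.0 CPM. Hk3 did not pass the test in either set, reached 3.65 CPM at most and was at the floor in 3 of the controls.

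To set isoenzymes against each other, CPM were divided by the exon length of each gene in kilobases, and each gene was expressed as a share of the genes examined for its step, here Hk1, Hk2, Hk3 and Hkdc1. Hk1 made up 91.8% ± 2.43 (SD, n = 4) of their summed level in the controls, 75.2% ± 6.55 for set A and 74.7% ± 6.65 for set B. Hk2 went from 0.00815% to 11.0% ± 4.72 and 8.41% ± 3.59, and Hkdc1 from 7.98% ± 2.09 to 12.7% ± 3.33 and 16.0% ± 3.34. Replicate 4 of set B had both the highest Hk1 share (84.0%) and the lowest Hk2 share (3.19%) of its set. The summed level was 19.1 ± 0.91 CPM per kilobase in the controls, 36.4 ± 3.43 for set A and 38.8 ± 16.9 for set B, 1.91-fold and 2.04-fold the control mean. Hk1 was the leading one of the 4 in all 12 kidneys, with a lowest share of 67.2%. The share of Hk2 depended on the length used, at 6.59% and 5.03% in the 2 sets with the longest transcript and 8.48% and 6.55% with no correction for length, and that of Hkdc1 with no correction was 4.97%, 8.44% and 10.6% in the 3 groups.

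**Figure D2:**
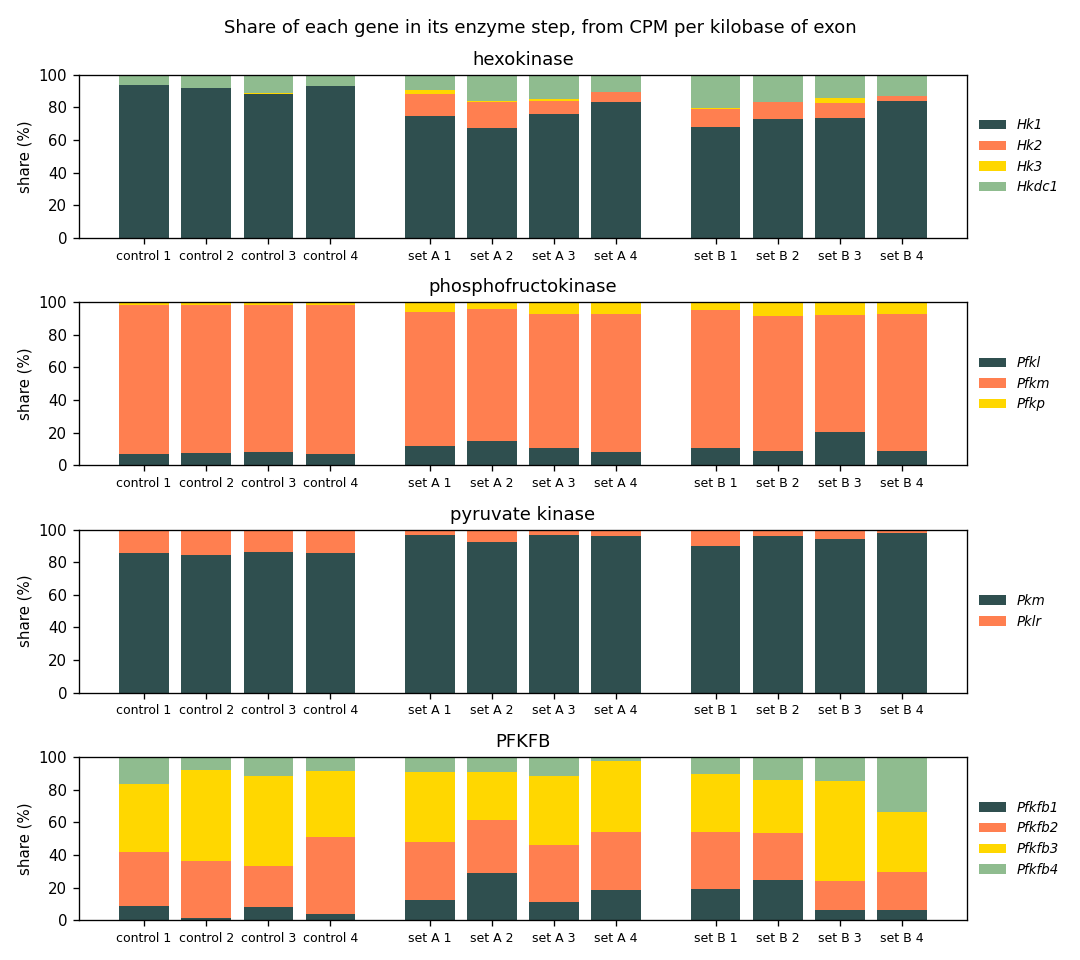
Share (percent, vertical axes from 0 to 100) of each gene in the summed CPM per kilobase of the genes drawn for its step, 1 bar per kidney, for hexokinases, phosphofructokinases, pyruvate kinases and the PFKFB genes. The gene with the largest share is the same in all 12 kidneys for every step except PFKFB, while the minor genes take a larger part after ischemia in the hexokinase and phosphofructokinase bars and a smaller part in the pyruvate kinase bars.

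Phosphofructokinase commits sugar to glycolysis and works as a tetramer of subunits that are named after muscle (Pfkm), liver (Pfkl) and platelet (Pfkp). Pfkm (chr15:98092589-98132451, plus strand) measured 242.5, 207.0, 193.5 and 230.9 CPM in the controls. It measured 101.1, 83.37, 120.7 and 86.8 CPM for set A and 89.08, 68.9, 80.81 and 152.6 CPM for set B. All 8 ischemic kidneys lay below all controls, and the highest of them was replicate 4 of set B. The log2 fold change was -1.16 in each set (SE 0.21), so the mean was 0.448 times that of the controls in both.

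Pfkp (chr13:6579768-6648777, minus strand) measured 18.23, 13.67, 16.71 and 17.72 CPM in the controls. It measured 29.3, 18.32, 44.68 and 30.78 CPM for set A and 20.35, 28.72, 35.4 and 55.62 CPM for set B. All ischemic values were higher, but replicate 2 of set A exceeded the highest control by little. Its mean was 1.86-fold that of the controls for set A and 2.11-fold for set B, or 1.70-fold in set B without replicate 4.

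Pfkl (chr10:77986947-78010083, minus strand) was the tightest of the 9 genes in the controls, with 35.45, 33.87, 35.62 and 35.36 CPM. It spread widely after ischemia, with 29.52, 30.69, 31.53 and 16.14 CPM for set A and 21.87, 14.93, 46.23 and 33.21 CPM for set B. All but 1 ischemic kidney, replicate 3 of set B, lay below the controls. The coefficient of variation was 2.30% in the controls, 26.9% for set A and 47.2% in set B.

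Per kilobase, Pfkm made up 90.9% ± 0.78 of the phosphofructokinase level in the controls, 82.3% ± 1.67 for set A and 80.6% ± 6.01 for set B. Pfkp went from 1.72% ± 0.18 to 6.34% ± 1.48 and 7.20% ± 1.64, and Pfkl from 7.35% ± 0.69 to 11.4% ± 2.90 and 12.2% ± 5.56. For Pfkp no ischemic kidney (lowest share 4.42%) overlapped with the controls (highest share 1.93%). With no correction for length the share of Pfkp was 6.14%, 19.5% and 21.5% in the 3 groups and that of Pfkl was 13.1% in the controls and 17.4% in set A. The ratio of Pfkm to Pfkp per kilobase had a median of 52.8 in the controls (46.5 to 60.7), 12.6 in set A (10.8 to 18.3) and 10.3 in set B (9.16 to 17.6). The summed level of the step was 2.02-fold lower for set A and 1.98-fold lower for set B than in the controls. Pfkm led in every kidney, so the ischemic kidneys had less phosphofructokinase mRNA in all, with a larger part of it from the minor genes.

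Aldolase cleaves fructose bisphosphate. Aldoa is the form of muscle and most other cells. Aldoa (chr7:126795234-126800751, minus strand) measured 917.3, 879.2, 740.2 and 889.4 CPM in the controls, 1091, 1083, 1063 and 977.5 CPM in set A, and 975.5, 1005, 955.9 and 1271 CPM in set B. Neither ischemic set overlapped with the controls, yet the difference was the smallest of the genes above control, 1.23-fold in each set (log2 0.30, SE 0.11) and 1.14-fold in set B without replicate 4. Aldoc, the brain form, averaged 14.3, 10.6 and 9.74 CPM in the 3 groups and did not pass the test (adjusted p = 0.60 and 0.46 in edgeR's quasi-likelihood test).

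Pyruvate kinase makes the pyruvate at the end of the chain. Pklr encodes the liver form and, from an upstream start, the red cell form, while Pkm encodes the muscle and the widespread forms M1 and M2 by alternative splicing, which gene counts do not separate. Pkm (chr9:59656368-59679375, plus strand) measured 589.4, 562.9, 683.6 and 613.5 CPM in the controls. It measured 1646, 1105, 1425 and 1692 CPM for set A and 1005, 1482, 1354 and 2695 CPM for set B. The lowest ischemic kidney, replicate 1 of set B, was still above the highest control. The mean was 2.40-fold that of the controls in set A (log2 1.26, SE 0.21) and 2.67-fold in set B (log2 1.42, SE 0.21), or 2.09-fold in set B without replicate 4.

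Pklr (chr3:89136142-89146784, plus strand) measured 63.27, 66.21, 70.89 and 66.9 CPM in the controls, 34.6, 57.13, 32.23 and 46.08 CPM in set A, and 72.67, 42.45, 53.48 and 32.13 CPM in set B. Set A lay below the controls, and replicate 1 of set B lay above them. The log2 fold change was -0.65 (SE 0.24) for set A and -0.41 (SE 0.24) for set B. Of the windows of 100 bases along the Pklr transcript, 21.8% also occur in the neighbouring gene Hcn3, and 9.82% of those of Pkm occur in Gm6560, so part of these counts depends on how shared reads were handled. For Hk1 the share was 1.39%, and for the other 6 genes 0%. Of the red cell markers Alas2 was at 1.20 to 5.56 CPM in the controls, at most 0.573 CPM in set A (adjusted p = 0.31 in edgeR) and at 0 in set B (adjusted p = 0.027), so it was lower in the 8 ischemic kidneys, in all but 1 of which Pklr was lower as well, and its part in the Pklr values was not tested. Hba-a1 and Hba-a2 were listed at 0, but 56.5% and 74.5% of their windows are shared between them, so their 0 says nothing about red cells.

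Pkm made up 85.5% ± 0.66 of the pyruvate kinase level per kilobase in the controls, 95.5% ± 1.97 for set A and 94.5% ± 3.46 for set B. It was thus the main pyruvate kinase gene in the control kidneys too. The rest, from Pklr, was 14.5%, 4.49% and 5.46%, or 8.40%, 2.49% and 3.06% with the longest transcript as the length. The ratio of Pkm to Pklr had a median of 5.98 in the controls (5.50 to 6.24), 26.2 in set A (12.5 to 30.8) and 19.5 in set B (8.95 to 54.3). Among the ischemic kidneys the extremes were both in set B, replicate 1 at the low end and replicate 4 at the high end. In contrast to phosphofructokinase, the summed level of the step was higher after ischemia, 2.14-fold for set A and 2.39-fold for set B.

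**Figure D3:**
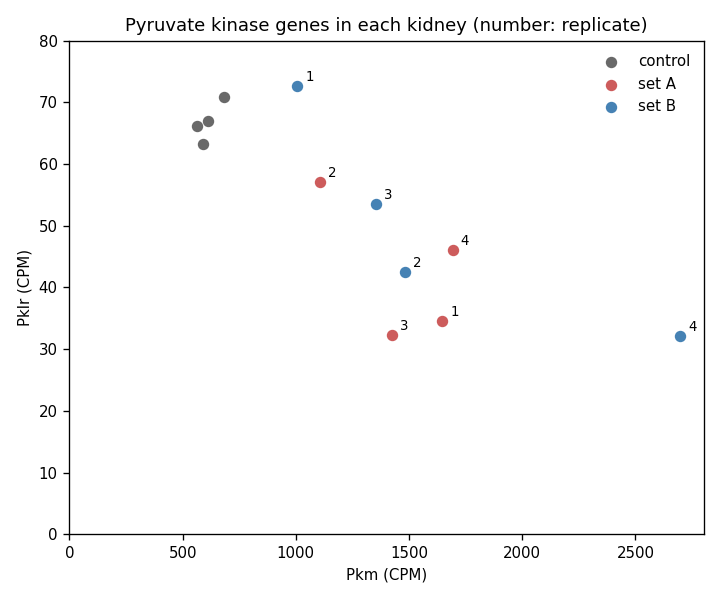
Pklr against Pkm in CPM (linear axes from 0), 1 point per kidney, with the controls in grey, set A in red and set B in blue and the replicate number beside each ischemic kidney. The controls form a tight group at low Pkm and high Pklr, and among the ischemic kidneys those with more Pkm tend to have less Pklr, from replicate 1 of set B (1005 and 72.67 CPM) to its replicate 4 (2695 and 32.13 CPM).

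Over the 8 ischemic kidneys, Pkm and Pklr were inversely related, with Pearson's r = -0.777 (exact permutation p = 0.0106, adjusted p = 0.053 over the 5 pairs examined) and Spearman's rho = -0.786 (exact permutation p = 0.0279, adjusted p = 0.14). Neither passed after adjustment. Without the 2 kidneys farthest from the median of Pkm, replicates 1 and 4 of set B, r was -0.588. The summed proximal tubule markers moved with this relation, at 1320 CPM in replicate 1 of set B (Lrp2 186.8 CPM) and at 417 CPM, the lowest of the 12 kidneys, in its replicate 4 (Lrp2 39.24 CPM), and their part in it was not tested. In replicates 1 to 4 of set A they summed to 903, 1390, 827 and 692 CPM, and in replicates 2 and 3 of set B to 663 and 929 CPM. The distal markers summed to 1280, 1130, 1190 and 1740 CPM in set A and to 1030, 1370, 1330 and 2010 CPM in set B. Their part in the relation was not tested either. Pfkm and Pfkp had r = 0.707 (exact permutation p = 0.0536, adjusted p = 0.134), which dropped to -0.101 without replicate 4 of set B and replicate 3 of set A, so it rested on those kidneys. The other 3 pairs (Hk1 with Hk2, Pfkl with Pfkm and Pfkl with Pfkp) had r between -0.289 and 0.423. The labels name no batch within which these relations could be repeated.

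Pfkfb3 makes fructose 2,6-bisphosphate, the activator of phosphofructokinase, and has 3 relatives, Pfkfb1, Pfkfb2 and Pfkfb4. Pfkfb3 (chr2:11471433-11554077, minus strand) measured 37.32, 33.2, 43.61 and 22.37 CPM in the controls, 28.67, 27.73, 23.55 and 54.51 CPM in set A, and 21.33, 27.59, 36.12 and 36.06 CPM in set B. The groups overlapped, with log2 fold changes of -0.02 (SE 0.29) and -0.17 (SE 0.29). It led the family per kilobase in 10 of 12 kidneys and Pfkfb2 in the other 2, with a Pfkfb3 share of 48.2% ± 8.38 in the controls, 39.9% ± 6.67 for set A and 41.5% ± 13.0 for set B. None of its relatives passed edgeR's test in either set, and Pfkfb1, at 2.21 ± 1.73 CPM in the controls and 8.50 ± 5.55 CPM in set A, came nearest (adjusted p = 0.093).

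The starts of 3 of these genes are shown as examples. Hk2 and Pkm were higher in every ischemic kidney, as were Pfkp and Aldoa, which are not printed. Pklr was lower in all but 1, as was Pfkl, which is not printed either. A core of the hypoxia response element (ACGTG or GCGTG on either strand, the letters bound by hypoxia-inducible factors) is in capitals. The sequences run from 250 bases before to 50 bases after the start in RefSeq, on GRCm38.p6. They are Hk2 at chr6:82774405-82774704 (minus strand), the second Pkm start at chr9:59656977-59657276 (plus strand), and both Pklr starts at chr3:89135892-89136191 and chr3:89136373-89136672 (plus strand).
Hk2: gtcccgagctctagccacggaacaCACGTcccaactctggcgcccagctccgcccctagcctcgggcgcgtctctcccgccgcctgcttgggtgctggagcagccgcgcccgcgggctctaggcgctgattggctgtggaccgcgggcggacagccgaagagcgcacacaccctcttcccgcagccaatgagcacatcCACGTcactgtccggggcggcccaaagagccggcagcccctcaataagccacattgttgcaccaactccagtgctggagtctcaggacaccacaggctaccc
Pkm: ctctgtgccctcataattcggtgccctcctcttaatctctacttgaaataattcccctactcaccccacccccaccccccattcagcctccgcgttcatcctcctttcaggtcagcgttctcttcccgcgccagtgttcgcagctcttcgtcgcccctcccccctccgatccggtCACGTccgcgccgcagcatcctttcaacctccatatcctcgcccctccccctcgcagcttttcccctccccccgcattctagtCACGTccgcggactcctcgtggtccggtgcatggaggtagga
Pklr upstream start: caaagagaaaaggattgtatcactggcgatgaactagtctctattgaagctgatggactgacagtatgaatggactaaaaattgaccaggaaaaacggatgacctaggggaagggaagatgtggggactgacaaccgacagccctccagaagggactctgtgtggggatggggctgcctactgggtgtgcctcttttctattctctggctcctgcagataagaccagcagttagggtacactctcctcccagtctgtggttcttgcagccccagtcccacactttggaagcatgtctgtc
Pklr downstream start: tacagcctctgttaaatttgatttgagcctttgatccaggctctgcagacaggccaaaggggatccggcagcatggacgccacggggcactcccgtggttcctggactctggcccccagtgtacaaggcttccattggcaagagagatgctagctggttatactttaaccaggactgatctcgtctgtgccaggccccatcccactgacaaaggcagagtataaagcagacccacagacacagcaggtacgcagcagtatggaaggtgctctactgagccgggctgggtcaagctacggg
Hk2 and this Pkm start hold 2 such cores each, and neither Pklr start holds any. RefSeq gave 18 starts for the 9 genes, of which 12 (66.7%) held the core, in 8 of the 9 genes (all but Pklr), compared with 43.8% of 32851 promoters of the same length. Of the genes not printed, Pfkm held 3, 2, 1 and 0 cores at its 4 starts, Pfkl held 1, and Pfkfb3 held 4 and 1. The first Pkm start, at chr9:59656326-59656625, held none. The Hk2 start also had 25 CpG dinucleotides and the Pkm starts had 27 and 23, while the Pklr starts had 3 and 8, around the median of 7 of all promoters. The letters alone do not show a bound site, and their absence says nothing about a factor.

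Between the ischemic sets, which the choice of genes did not use, none of the 9 genes differed in edgeR's quasi-likelihood test (adjusted p = 0.9997 for each) and none had an unadjusted p below 0.05. Of all genes tested, 0.00857% (1 gene) passed the threshold in this comparison, and 587 (5.03%) had an unadjusted p below 0.05. The gene, named after its values were seen, was Slc5a12, a sodium-coupled lactate carrier, which averaged 13.6 CPM for set A against 49.0 CPM for set B (log2 1.85, SE 0.28, adjusted p = 0.033). No gene passed in a fit of only these 2 sets. The same held without any single control, any single kidney of set A, or replicate 1 or 3 of set B. The ranges of the sets overlapped for each of the 9 genes, as they did for all but 2.61% of the genes tested. DESeq2 called none of the 9 either and 27 of all genes. Set B minus set A, on the log2 scale, was 0.12 for Hk1 (95% interval -0.40 to 0.63), -0.45 for Hk2 (-1.29 to 0.39) and 0.16 for Pkm (-0.29 to 0.60). It was 0.18 for Pfkp (-0.46 to 0.83), 0.24 for Pklr (-0.26 to 0.74) and -0.15 for Pfkfb3 (-0.75 to 0.45). Pfkm and Aldoa were nearest to 0, with intervals of -0.43 to 0.42 and -0.24 to 0.23, and Pfkl had 0.11 (-0.53 to 0.74). For 7 of the 9 genes the interval reached beyond a difference of 1.5-fold, so equality is not shown.

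The shares also overlapped between the sets. In exact two-sided permutation tests of 4 kidneys against 4, which cannot go below p = 0.0286, the share differed by -2.54 percentage points for Hk2 (p = 0.429), 0.854 for Pfkp (p = 0.40), -0.973 for Pkm (p = 0.629) and 1.64 for Pfkfb3 (p = 0.914). After adjustment over these 4 tests no p was below 0.839. With 1 kidney left out, the difference was between -4.20 (without replicate 4 of set A) and -0.803 (without replicate 4 of set B) for Hk2. For Pfkp it was between 0.212 (without replicate 2 of set A) and 1.64 (without replicate 1 of set B), and in the latter case the shares no longer overlapped (exact permutation p = 0.0571, the smallest that 3 kidneys against 4 allow, adjusted p = 0.228). Replicate 4 of set B was the highest of the 12 kidneys for Hk1, Pkm, Aldoa and Pfkp, and replicate 1 of set B was the lowest ischemic kidney for Hk1 and Pkm and the highest for Pklr.

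Proportions differed, but the leading isoenzyme did not. Among the genes examined for hexokinase, phosphofructokinase and pyruvate kinase, the leading one per kilobase of exon (Hk1, Pfkm and Pkm) was the same in the control and the ischemic kidneys. These levels are thus not a switch of the leading gene in any of these 3 groups, although Hk2 went from the floor to at least 11.68 CPM. The summed levels did not move together, as those of hexokinase and pyruvate kinase were higher and that of phosphofructokinase was lower.

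Of the 6 other isoenzymes examined for these steps, all passed the filter, and in each set 1 rose (Hkdc1) and the other 5 did not pass edgeR's test. Of the 15 other genes of glycolysis and lactate formation examined, 11 passed the filter. None of these rose in either set by edgeR or by DESeq2, while 3 fell in set A and 2 of the same fell in set B. An unadjusted p below 0.05, in either direction, was found for 5 of them in set A and for 4 in set B, and with the replicate number as a block 1 rose in set B. Over all genes tested, 22.3% were called in set A (10.5% higher and 11.7% lower) and 22.8% in set B (10.9% higher and 11.9% lower). The median log2 fold change of the 11 genes was -0.26 for set A and -0.29 for set B, beside -0.02 for all genes in each set. Triosephosphate isomerase Tpi1 fell by 0.92 on the log2 scale in set A (adjusted p = 6.9e-04 in edgeR) and by 0.69 in set B (adjusted p = 0.0072). Pgam2, the muscle phosphoglycerate mutase, fell by 1.20 (adjusted p = 0.038) and by 1.54 (adjusted p = 0.0091). Ldha, which makes lactate from pyruvate, fell in set A, by 0.63 (adjusted p = 0.030), with a log2 fold change of -0.29 (adjusted p = 0.38) in set B, and the difference between the sets did not pass (adjusted p = 0.9997).

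The calls of Pgam2 and Ldha in set A were lost when single kidneys were left out, Pgam2 without control 1, 2 or 4 or replicate 1, 2 or 3 of set A, and Ldha without control 1 or 2 or replicate 1 or 3 of set A. The lowest of these adjusted p in edgeR was 0.051 and the highest 0.153, and without control 1 or replicate 1 or 3 of set A the list had 1 call. Eno1, the main enolase, was listed at 0 in every kidney, as were the testis forms Gapdhs, Pgk2 and Ldhc. Of the windows of 100 bases along Eno1, 59.0% also occur in Eno1b, so its 0 says nothing about enolase.

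Of 6 genes of gluconeogenesis, which runs the chain backwards, 4 fell in both sets, namely glucose-6-phosphatase G6pc, fructose bisphosphatase Fbp1, the cytosolic PEP carboxykinase Pck1 and pyruvate carboxylase Pcx. G6pc went from 167 ± 24.6 CPM to 7.47 ± 5.18 CPM for set A and 19.4 ± 7.49 CPM for set B (log2 -4.50 and -3.11, adjusted p = 3e-06 and 1.1e-04 in edgeR). The log2 fold changes of Fbp1 were -3.13 and -3.29, those of Pcx -2.11 and -2.39, and those of Pck1 -1.74 and -1.22, all past the threshold. The mitochondrial Pck2 rose in set A (log2 1.03, adjusted p = 0.0031) and had a log2 fold change of 0.49 in set B (adjusted p = 0.16). The remaining gene did not pass the test in either set.

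**Figure D4:**
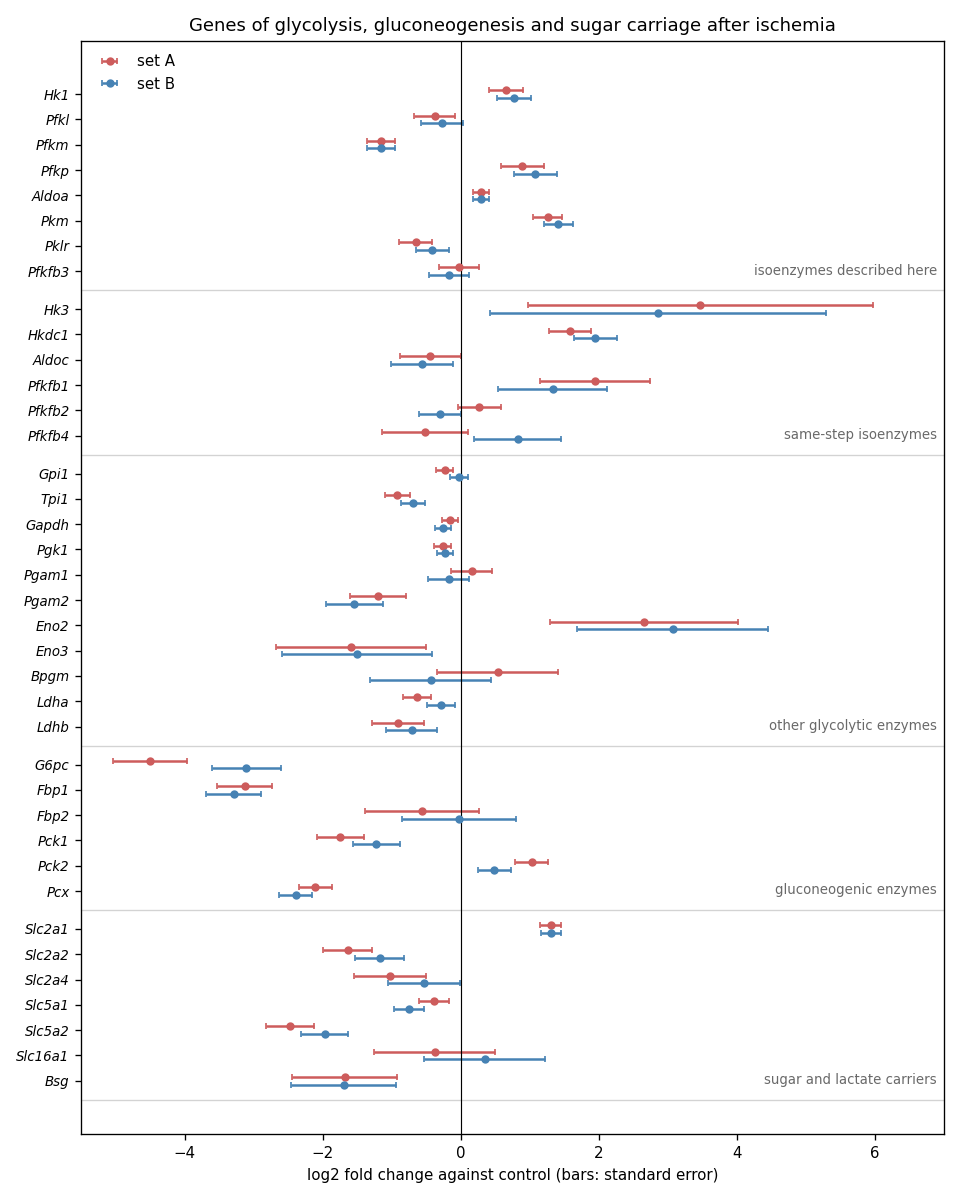
Log2 fold change against control (horizontal axis) in set A (red) and set B (blue) with standard errors, for the glycolytic isoenzymes, the other isoenzymes of the same steps, the rest of glycolysis, gluconeogenesis and the sugar and lactate carriers. Genes under the low-count filter and genes at the floor throughout a group, such as Hk2, are not drawn. Hkdc1, Slc2a1 and Pkm stand to the right, where low genes with wide bars such as Hk3 lie farther out. G6pc and Fbp1 stand farthest to the left.

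Among 10 carriers of glucose and lactate, 8 passed the filter, 1 rose and 3 fell in set A, and 1 rose and 4 fell in set B. Slc2a1 (GLUT1), the widespread glucose carrier, rose from 92.8 ± 5.35 CPM to 229 ± 36.9 CPM for set A and 230 ± 38.5 CPM for set B, a log2 fold change of 1.31 in each (adjusted p = 1.7e-06 and 1.8e-06 in edgeR). The carriers of the proximal tubule, Slc2a2 (GLUT2) and Slc5a2 (SGLT2), fell too, with log2 fold changes of -1.64 and -1.17 for Slc2a2 and of -2.47 and -1.97 for Slc5a2. Slc5a1 (SGLT1) fell in set B (log2 -0.75, adjusted p = 0.017), with -0.38 (adjusted p = 0.26) in set A, and the difference between the sets did not pass (adjusted p = 0.9997). Slc16a7 (MCT2), a lactate carrier, fell from 2.0 ± 0.83 CPM to at most 0.022 CPM in the ischemic kidneys.

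Of these carriers, Slc2a1 and Slc5a2 kept their calls with any kidney left out. That of Slc2a2 in set B was lost without control 3 or 4 or replicate 2, 3 or 4 of set B, and that of Slc5a1 in set B without control 2 or replicate 1 or 3 of set B (adjusted p between 0.0513 and 0.0561 in edgeR). Slc16a7 lost its call in set A without any 1 of the 8 kidneys compared, and in set B without control 1 or 2 or replicate 1, 2 or 3 of set B (adjusted p between 0.0501 and 0.098). With single kidneys left out, the carriers called in set B numbered 2 to 5, the 2 being without replicate 3 of set B.

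The genes whose log2 CPM followed Hk2 and Pfkm most closely over the 12 kidneys were sought because these 2 had the highest and the lowest log2 fold change of the 9. For Hk2 they were Rtn4, a shaper of the endoplasmic reticulum (r = 0.9972), the epithelial keratin Krt8 (r = 0.9936) and the alpha tubulin Tuba1b (r = 0.9935). Krt8 averaged 235 CPM in the controls, 1919 CPM for set A and 1421 CPM for set B. For Pfkm they were the cyclic AMP phosphodiesterase Pde4c (r = 0.9731), the talin Tln2 (r = 0.9562) and the Wnt inhibitor Sfrp1 (r = 0.9561), and Sfrp1 averaged 231, 40.1 and 31.5 CPM. As the control and ischemic kidneys form separate groups, these values are given as a description without a p.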

How the data were processed

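RNA of 12 mouse kidneys was measured by stranded mRNA libraries sequenced as single reads. The authors used STAR for mapping to mm10 and HTSeq for counting, and the deposited values are raw counts of 23420 genes without normalization. Versions, annotation release, strand setting and the handling of shared reads are not given in the sources used here. Kidneys were grouped by title (4 per group), and nothing but the labels ties them to mice, so p-values measure the spread between these samples.

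The counts were filtered (minimum count 10, minimum total 15, leaving 11664 of 14213 genes with counts), scaled by TMM (factors 0.968 to 1.02) and fitted in edgeR 4.0.16 in R 4.3.3, with all 3 groups in one quasi-likelihood model (common biological coefficient of variation 0.762), two-sided tests and Benjamini-Hochberg adjustment over all genes at 0.05. Each standard error (SE) of a log2 fold change is its absolute value divided by the square root of the F statistic. The 95% intervals were built from these. Genes were divided by the union of their exons in GENCODE M21 (GRCm38). Shares between sets were compared with exact permutation tests in SciPy 1.17.1. Motifs were counted in RefSeq promoters. Python 3.11.15, NumPy 2.4.6, pandas 2.3.3 and matplotlib 3.10.9 were also used. The alternatives were RLE size factors, no filter, a fit of only the 2 groups compared, a replicate block, DESeq2 1.42.0, other gene lengths and leaving out each kidney.

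The genes described and all lists were chosen with earlier results of these data known. Named were the 9 members, isoenzymes of the same steps, genes of the other pathway lists past the threshold in a set or at 0 throughout, and the 3 genes most correlated with the members of highest and lowest log2 fold change. Some genes of these steps are not reported here, and no result that needs them is given. The procedure was also run on simulated counts, whose rates of recovery and of false calls are not given here. Same-numbered kidneys of different groups had correlations of their deviations between -0.0554 and 0.0452, so the numbers were not taken to pair them.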

Additional observations from a re-analysis of the deposited data

Results flagged for a closer look

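In 4 of the 26 groups of 4 kidneys examined (the levels of the 9 genes), 1 kidney stood apart by Dixon's criterion at the 95% level, which chance does in about 1 of 20 groups. Pfkl in replicate 2 of the controls was 33.87 CPM, below 35.45, 35.62 and 35.36 CPM, a small gap within a very tight group. Pfkl in replicate 4 of set A was 16.14 CPM, below 29.52, 30.69 and 31.53 CPM, and Pfkfb3 in the same kidney was 54.51 CPM, above 28.67, 27.73 and 23.55 CPM. Aldoa in replicate 4 of set B was 1271 CPM, above 975.5, 1005 and 955.9 CPM, and this kidney had the lowest total count.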

How the results depend on the processing

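The counts of genes called against control ranged from 2142 to 2967 in set A (2599 as reported) and from 2213 to 3067 in set B (2659) over all alternatives, and none of the 9 genes was called between the sets under any. In set B against set A, where 1 gene was called, no filter gave 6, only the 2 groups compared gave 0 and DESeq2 gave 27. Leaving out kidneys gave 3 without replicate 2 of set B, 7 without its replicate 4 and 0 without any other. The calls among the other glycolytic enzymes in set A numbered 1 to 3 with a kidney left out (1 without control 1 or replicate 1 or 3 of set A), and those among the carriers in set B 2 to 5 (2 without replicate 3 of set B, 3 without control 2 or replicate 1 or 2 of set B). DESeq2 called 2 of the other isoenzymes of these steps in set A, where edgeR called 1. The share difference between the sets ranged, with a kidney left out, from -4.20 to -0.803 percentage points for Hk2, from 0.212 to 1.64 for Pfkp, from -2.19 to 0.557 for Pkm and from -4.81 to 4.65 for Pfkfb3.

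Set B minus set A, on the log2 scale, changed sign when kidneys were left out, from -0.29 to 0.33 for Hk1, -0.21 to 0.32 for Pfkl, -0.30 to 0.13 for Pfkm, -0.13 to 0.40 for Pfkp, -0.11 to 0.041 for Aldoa, -0.20 to 0.33 for Pkm and -0.30 to 0.18 for Pfkfb3. The negative values of Hk1 (-0.29), Pfkp (-0.13) and Pkm (-0.20) came without replicate 4 of set B. With RLE size factors Pfkm was at 0.0109 and Aldoa at 0.0074, and with DESeq2 they were at 0.0111 and 0.0073. Against control, Hk3 in set B ranged from -0.59 to 7.65 and Pfkfb2 in set A from -0.013 to 0.42. The cause of these changes was not tested.

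With the replicate number as a block, which does not pair these kidneys, 2491 genes were called in set A, 2531 in set B and 1 between the sets, and the call of Slc16a7 was lost in both sets (adjusted p = 0.106 and 0.0686 in edgeR). Of the alternatives for single genes, 1045 counted as unchanged, 34 lost a call and 1 gained one (Pfkfb1 in set A with DESeq2, adjusted p = 0.0498). A further 22 changed sign and 2 moved by more than the spread between replicates. Unchanged means the same direction and side of the threshold, except for the 9 genes against control. For those it means a move smaller than the spread between replicates, so changes of sign within overlapping groups are not counted. The glycolytic enzyme that rose in set B with the block is outside this tally. For Hk2 the fitted value against control depends on the prior count, and only the lower bound is used. Splice forms of Pkm and the starts of Hk1 and Pklr cannot be separated in gene counts.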
